A study of Mus musculus with 17 samples.

Results

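Lungs of humanized PPARα (KI) mice were compared with lungs of wild-type (WT) mice that drank the same vehicle water. The comparison rested on 5 of the 17 libraries of the series: KI vehicle mice 102 (male), 116 (female) and 135 (female), and WT vehicle mice 107 (female) and 122 (male). The features were the 26073 autosomal genes whose counts summed to 20 or more over all libraries, out of 31245 genes in the table. The mice were put on an American-type diet when young and drank sucrose water as vehicle for 14 weeks, and the lungs were frozen at harvest. The WT mice were purchased Sv/129 animals, whereas the KI mice, and the PPARα null (KO) mice cited below for side-by-side levels, came from breeding pairs that lacked the mouse receptor and carried the human one on 1 allele. The strain background of the KI and KO mice is not given in the sources used here. The humanized allele and the origin of the mice therefore cannot be told apart in this comparison. Both sexes were present in each group, with 1 WT mouse of each sex. KI and WT mice that drank the higher of the study's PFOA (perfluorooctanoic acid) doses for 14 weeks, 3 per genotype, gave a second KI against WT comparison. Its animals were all different, but both comparisons took their estimate of spread from 1 fit of all 17 libraries.

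PPARα is a ligand-activated nuclear receptor that pairs with RXR and switches on genes of fatty acid transport, peroxisomal and mitochondrial β-oxidation and ketone body formation. It is best known from liver. The human and mouse receptors differ in how strongly some ligands activate them, and mice in which the human receptor stands in for the mouse one were built to study that difference. In lung, epithelial cells, macrophages and other leukocytes share the tissue, so that whole-lung RNA mixes their transcripts, and fewer cells of a type cannot be told apart from less RNA per cell.

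The 5 libraries held 6198574 to 8088163 estimated counts, and levels are given as CPM, counts scaled to library size with TMM factors. A count of 3 was worth 0.371 to 0.484 CPM before those factors. WT library 122 stood apart. Protein-coding genes took 65.3% of its counts, against 76.2% to 79.6% in the other 4 libraries, its 10 most abundant genes took 31.4% against 16.6% to 19.7%, and its TMM factor was 0.841 against 0.972 to 1.01. KO vehicle library 137, which is within the KO ranges below, also stood apart, with 61.3% protein-coding counts, 33.0% in its 10 most abundant genes and 4116118 counts in all. Both WT vehicle libraries carried the same code, read here as the i5 index, in their column names. No KI vehicle library carried this code, so it cannot be told apart from genotype within these 5 libraries. Lung identity was plain in all 5, with Scgb1a1, the main secretory protein of club cells, at 5480, 8210 and 8380 CPM in KI and 9980 and 21400 CPM in WT. Its value in mouse 122 was the highest.

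Ppara, the gene of the mouse receptor, lies at chr15:85734983-85802819 (mm10, plus strand). Its reads reached 15.3, 15.3 and 12.7 CPM in the KI libraries and 6.13 and 7.21 CPM in the WT libraries. Every KI library lay above both WT libraries, with a mean of 14.4 ± 1.52 CPM (SD, n = 3) against 6.67 ± 0.763 CPM (SD, n = 2). The log2 fold change was 1.11 ± 0.30 (SE), with an adjusted p of 0.161 by edgeR's quasi-likelihood test, which is under the threshold of 0.2 used here. The call was lost whichever of the 5 libraries was left out (log2 fold change 1.23 without 122), while in the PFOA libraries the difference was 1.44 ± 0.26 with an adjusted p of 0.0185. The KO vehicle libraries, in which the gene is disrupted, held 9.17 to 11.7 CPM, so that counts over the whole mouse gene are no check of the allele, and the table has no row for human PPARA. None of the other 43 genes tested within 2 Mb of the Ppara start was called.

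The call required more than a 2-fold difference together with an adjusted p below 0.2, and 228 genes met it (0.874% of the autosomal genes tested). Of these, 149 (0.571%) were higher and 79 (0.303%) lower in KI, and 166 were protein-coding. In 224 of them the 3 KI libraries lay entirely above or below both WT libraries, as they did in 22.2% of all autosomal genes tested. The count moved with the libraries used. It was 44 (0.169%) without WT 122, 1371 without WT 107, 95 without KI 102, 397 without KI 116 and 115 without KI 135. Without 122, 38 of the 228 genes remained called, all 228 kept their direction, and 191 kept a fold change over 2. The same KI libraries and WT 107 had helped to choose these genes, so the kept direction is a description and not a test. Leaving out 122 left 107 as the only WT vehicle library, and leaving out 107 left only 122. For a call lost in such a fit, here and below, dependence on the library left out cannot be told apart from lost replication. The scatter of fold changes with and without 122 shows both sets. DESeq2 called 316 genes on the same counts.

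**Figure D1:**
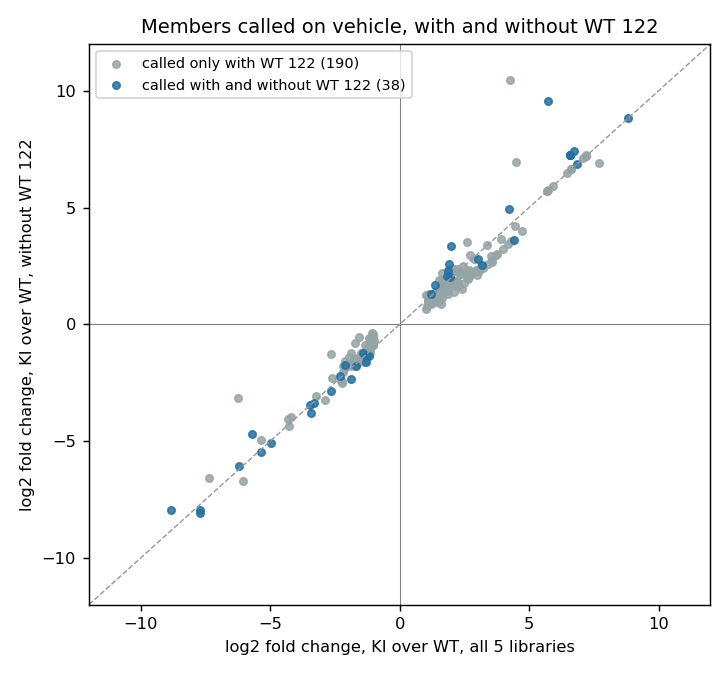
Each point is 1 of the 228 autosomal genes called in KI against WT on vehicle, with its log2 fold change from all 5 libraries on the x axis and without WT library 122 on the y axis. The dashed line marks equal values, all points keep their sign, and 38 genes (blue) were called in both fits.

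The libraries of PFOA-exposed mice, which share no animal with the vehicle libraries, called 142 autosomal genes (0.545%) in KI against WT. Among them were 68 of the vehicle calls, 40 higher and 28 lower, all in the same direction. The shared genes made up 29.8% of the vehicle calls and 47.9% of the PFOA calls. Of the 228 vehicle calls, 207 had the same sign on PFOA, with a median log2 fold change of 0.94 for the 149 higher genes (2.02 on vehicle) and -0.90 for the 79 lower genes (-1.72 on vehicle). The vehicle values chose these genes, so their larger size there is a description. A direct test of the difference between the vehicle and PFOA contrasts called 0 genes with edgeR (1203 at an unadjusted p under 0.05) and 1 with DESeq2. A core of 34 genes was called whichever vehicle library was left out, and 31 of these were also called on PFOA.

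**Figure D2:**
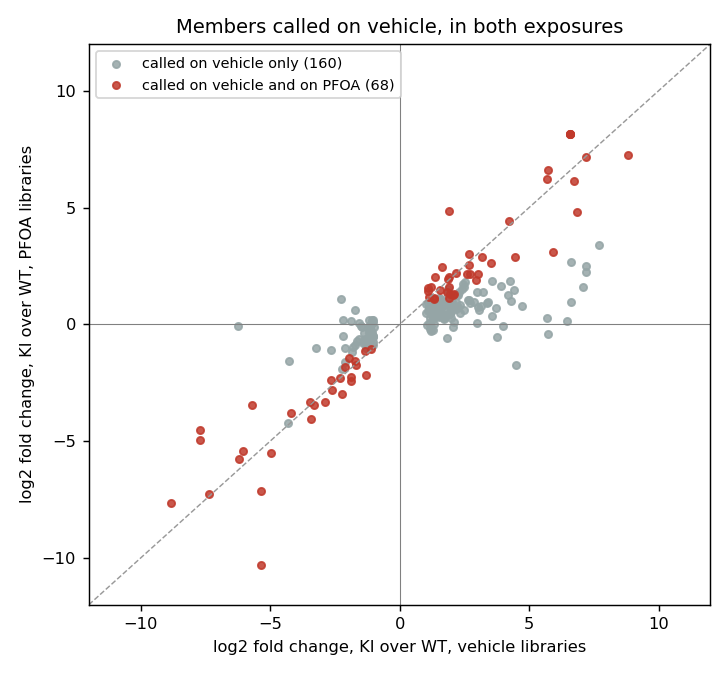
Each point is 1 of the 228 genes called on vehicle, with the KI over WT log2 fold change in the vehicle libraries (x axis) and in the PFOA libraries of other mice (y axis). The 68 genes called in both (red) lie in the same quadrant on each axis, and many of the other 160 lie nearer to 0 on PFOA.

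The protein-coding higher gene with the smallest adjusted p, Ifi213, belongs to the p200 family on chromosome 1, interferon-inducible genes whose proteins bind nucleic acids through HIN domains. Ifi213 (chr1:173566283-173599274, minus strand) reached 25.5, 23 and 27.4 CPM in KI and only 0.133 and 0.328 CPM in WT. The WT total was 3 counts and the ratio was 114, with a 95% counting interval of 39.0 to 557. Its neighbour Ifi206 reached 10.3, 5.86 and 9.98 CPM in KI against 0.266 and 0.655 CPM in WT (log2 fold change 4.24 ± 0.62, adjusted p 0.00278). No KI library overlapped a WT library for either gene, and both stayed called without each library in turn. On PFOA their log2 fold changes were 6.13 and 4.44, and the KO vehicle libraries held 25.6 to 31.0 CPM of Ifi213 and 7.83 to 15.2 CPM of Ifi206.

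Of the 13 p200 genes tested over 544 kb, 5 were called higher, 1 was called lower, and 12 had a fold change above 0. Ifi209 was higher at 23.6, 10.8 and 20.9 CPM against 3.73 and 4.42 CPM, as were Ifi211 and Ifi203 with log2 fold changes of 1.88 ± 0.52 and 1.52 ± 0.36. These 3 calls were lost without 122, where the values were 2.30, 2.33 and 1.02. Those of Ifi211 and Ifi203 were also lost without 102 or 135, and that of Ifi211 without 107. Ifi202b went the other way. It was at 0 counts in all 3 KI libraries and at 1.73 and 0.491 CPM in WT, which makes it at least 8.33-fold lower in KI against a floor of 3 counts over the group. Its call was lost whichever library was left out and was made on PFOA (adjusted p 0.105), and the 3 KO vehicle libraries were also at 0. Ifi214 (log2 fold change 2.10 ± 0.60, adjusted p 0.204), Ifi208 (0.87 ± 0.28) and Mndal (0.86 ± 0.28) had KI libraries above both WT libraries without passing the test. Because these genes are near-copies of one another, the split of reads among them by the authors' estimation is uncertain.

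**Figure D3:**
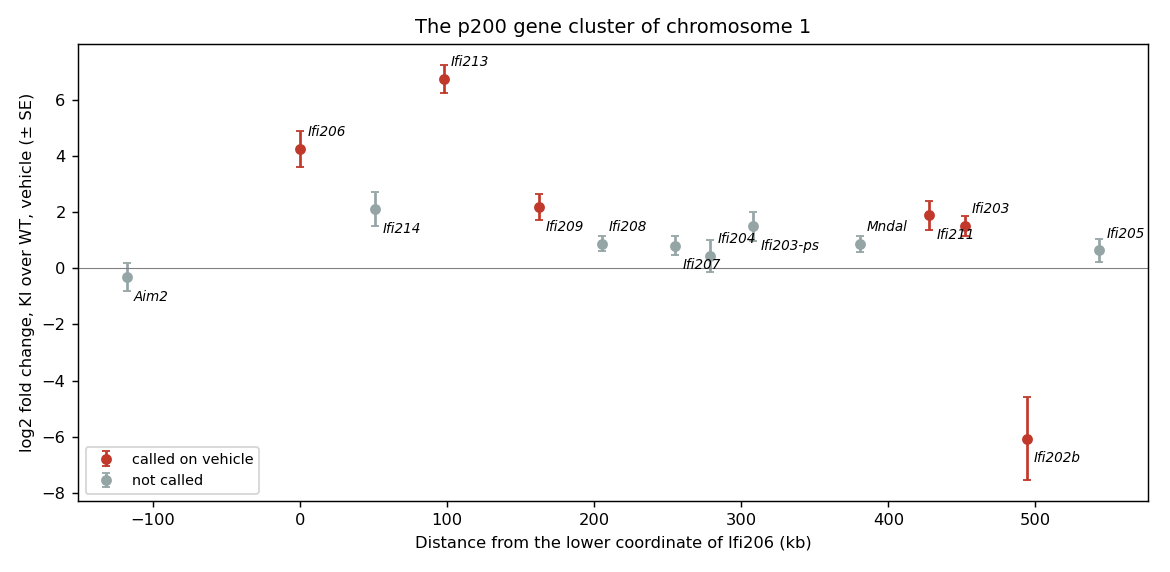
Log2 fold changes of KI over WT on vehicle (± SE) are drawn for the p200 genes and Aim2 against their distance in kb from the lower coordinate of Ifi206, with called genes in red. Ifi213 and Ifi206 are highest at 6.73 and 4.24, and Ifi202b is at -6.06 (a fitted value with KI at 0 counts, not a bound). The other p200 genes lie above 0, and Aim2, counted apart, is at -0.32.

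The promoter sequences of the p200 genes are shown because most of these genes hold the same letters just before their start. The motif searched, the core of the interferon-stimulated response element, was GAAA, then any 2 bases, then GAAA again, on both strands, in RefSeq windows of 300 bases (250 before to 50 after the start, GRCm38.p6, a C57BL/6J assembly and not the Sv/129 strain). The motif was in 3.44% of all 32851 windows. It was in windows of 9 of the 11 p200 genes that had one, in 13 of the 111 windows (11.7%) of genes called higher and in 3 of the 67 (4.48%) of genes called lower. Outside the p200 cluster it was in 9 of the 105 windows (8.57%) of genes called higher. The 100 bases before the start are printed 5′ to 3′ on the gene's strand for the 4 called p200 genes that hold it, and for Ifi208, which was not called. The motif is in capitals.
Ifi213 (chr1:173599273-173599372): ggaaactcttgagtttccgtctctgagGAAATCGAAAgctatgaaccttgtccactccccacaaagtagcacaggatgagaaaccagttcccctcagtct
Ifi206 (chr1:173491319-173491418): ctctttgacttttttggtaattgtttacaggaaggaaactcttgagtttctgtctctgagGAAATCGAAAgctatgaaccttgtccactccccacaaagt
Ifi211 (chr1:173913047-173913146): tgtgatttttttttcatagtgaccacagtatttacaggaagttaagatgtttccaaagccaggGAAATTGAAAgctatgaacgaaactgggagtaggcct
Ifi203 (chr1:173942493-173942592): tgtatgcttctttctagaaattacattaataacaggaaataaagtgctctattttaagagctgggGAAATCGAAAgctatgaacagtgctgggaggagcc
Ifi208 (chr1:173673565-173673664): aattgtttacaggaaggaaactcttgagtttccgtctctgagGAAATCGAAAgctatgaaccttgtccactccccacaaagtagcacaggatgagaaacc

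The copy GAAATCGAAA stood 73 bases before the start in Ifi213, 40 in Ifi206, 58 in Ifi208 and 35 in Ifi203. Ifi211 carried GAAATTGAAA at 37. Another window of Ifi203 (chr1:173942623-173942922), with a different start, held no match. The windows of Ifi209, which was called higher, and of Ifi202b, which was called lower, held no match. A match is a stretch of letters and not a measured binding site.

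Of the MHC and antigen presentation genes, 4 were higher in KI, led by Nlrc5. Nlrc5 (chr8:94434356-94527272), the transactivator of class I genes, reached 36.8, 23.9 and 34.3 CPM in KI against 7.73 and 8.52 CPM in WT. The KI range did not overlap the WT range, with a log2 fold change of 1.96 ± 0.29, an adjusted p of 0.00278, 2.03 without 122 and 1.29 ± 0.23 on PFOA (adjusted p 0.0191). The KO vehicle libraries held 32.0 to 38.9 CPM. Nlrc5 overlaps 9330175E14Rik on the opposite strand, as Gdpd3, Arsj, Gprc5b and Rpl35a below overlap other genes, and since the use of strand in counting is not given, reads of such partners cannot be told apart.

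Of the 20 genes tested in this list, 4 were called higher, 0 lower, and all 20 had a fold change above 0, with a median log2 fold change of 0.74 (0.015 over all autosomal genes). Besides Nlrc5 these were Tap1, which moves peptides into the endoplasmic reticulum, and the class I genes H2-Q6 and H2-Q7. Tap1 reached 50.6, 28.8 and 48.6 CPM against 18.9 and 20.8 CPM, H2-Q6 reached 110, 60.7 and 113 CPM against 38.5 and 48.3 CPM, and H2-Q7 reached 108, 71.0 and 133 CPM against 44.1 and 58.6 CPM. In each, mouse 116 was the lowest KI library and still above both WT libraries. H2-K1, a classical class I chain, was at 443, 402 and 427 CPM against 295 and 274 CPM without passing (adjusted p 0.342). Tap1, H2-Q6 and H2-Q7 lost their calls without 122, 102 or 135 (log2 fold changes without 122 of 1.17, 1.30 and 1.24), and the latter pair also without 107. The list held 1 call without each of 122, 102 and 135, and 6 without 116 or without 107. On PFOA the list had a median of 0.65, with 20 of 20 above 0 and 2 called. H2-Q6 and H2-Q7 are near-copies, and Tap1 overlaps Psmb9 on the opposite strand.

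Among interferon-stimulated genes, of 23 tested, 2 were called higher and 21 were above 0, with a median log2 fold change of 0.65 on vehicle and 0.90 on PFOA, where 5 were called. Oas2, a sensor of double-stranded RNA, was at 7.80, 7.51 and 6.89 CPM in KI and 0.932 and 1.31 CPM in WT, with no overlap (log2 fold change 2.72 ± 0.64, adjusted p 0.1). Its KO vehicle level was 9.79 to 17.3 CPM. Ifi27l2a had 12.7, 5.86 and 6.05 CPM against 1.86 and 0.491 CPM. Both calls were lost without 102 or 122 (2.97 and 2.12 without 122), and 4 members were called without 107. Oas2 was also called on PFOA (2.15, adjusted p 0.0734).

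In the list of T and natural killer (NK) cell genes, a few NK and cytotoxic genes were higher in the vehicle comparison, and no T cell receptor, CD3, CD4 or CD8 gene was called. Of 22 tested, 5 were called higher, 0 lower and 20 were above 0, with a median log2 fold change of 1.05. Ncr1 is the NK receptor NKp46, Gzma and Prf1 encode the killing proteins granzyme A and perforin, Cd226 is an activating receptor and Ccl5 a chemokine. Ncr1 reached 7.16, 3.05 and 5.06 CPM in KI against 0.400 and 0 CPM in WT, a ratio of 22.4 with a counting interval of 7.46 to 110 on 3 WT counts. Gzma reached 8.44, 4.58 and 8.86 CPM against 2.13 and 1.15 CPM, and Ccl5 reached 7.48, 2.80 and 5.62 CPM against 1.07 and 0.164 CPM. Mouse 116 was lowest of the KI mice for all 3, without overlap. The T cell receptor chain gene Trac was at 2.23, 1.15 and 1.83 CPM against 1.73 and 1.80 CPM, with overlapping groups, as for Cd3d (log2 fold change -0.54). Every KI library lay above both WT libraries for Cd3g (9.23, 5.35 and 5.48 CPM against 1.60 and 3.60 CPM) and Cd3e (log2 fold change 0.99). Over the list, 17 of 22 genes had all KI libraries above both WT libraries and 0 all below, where 22.2% of all autosomal genes tested did not overlap. Of the 22, 14 had an unadjusted edgeR p under 0.05.

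Outside the list, Klrk1, the receptor NKG2D, was also higher (log2 fold change 2.02 ± 0.43, adjusted p 0.0559), as were the neighbouring Klre1 and the transcription factors Eomes and Runx3. All 4 of these calls were lost without 122 or without 102, and all but that of Klrk1 without 135. In the list, 1 member (Ncr1) was called without 122, against 2 without 102, 4 without 135, 8 without 116 and 10 without 107. On PFOA the list's median was 0.04, with 12 of 22 above 0 and 1 called (Gzma, 1.30, adjusted p 0.192). Summed over the list, KI vehicle libraries held 103 to 134 CPM and WT vehicle libraries 51.3 and 61.0 CPM, while KI and WT PFOA libraries held 112 to 160 CPM and 103 to 142 CPM. The WT vehicle libraries were the 2 lowest of these 11.

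B cell genes set the KI mice apart from one another. Ms4a1, the surface protein CD20, was at 23.4, 2.67 and 14.3 CPM in KI mice 102, 116 and 135, and at 2.40 and 0.491 CPM in WT. Cd79a, a signalling chain of the B cell receptor, was at 24.5, 3.05 and 15.7 CPM against 2.93 and 0.328 CPM. Mice 102 and 135 were high, and mouse 116 lay close to WT 107. Of 18 genes in the list, 5 were called higher (Ms4a1, Cd79a, Cd79b, Fcmr and Ighd), with a median log2 fold change of 2.17. None was called without 122, 102 or 135, while 11 were called without 116 and 9 without 107. Without 122 the log2 fold changes of Ms4a1 and Cd79a were 2.48 and 2.29. On PFOA, 0 were called and the median was 0.39. The plasma cell gene Jchain was at 10.4, 3.31 and 2.39 CPM against 4.26 and 7.04 CPM, with overlapping groups. Other genes called higher followed the same order of KI mice, among them Cd22, an inhibitory B cell receptor, at 33.9, 5.22 and 20.4 CPM against 4.4 and 2.46 CPM, and Ebf1, a factor needed for B cells that stromal cells also make, at 79.9, 36.3 and 51.0 CPM against 22.2 and 20.6 CPM. Ebf1 lost its call without 122 (1.33) and Cd22 without 122 (2.17), 102 or 135.

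Among the other strongly supported higher genes, Cd59a, an inhibitor of the complement membrane attack complex, was at 27.1, 24.9 and 20.5 CPM against 9.99 and 11.0 CPM. Cd300lg, a receptor of endothelial cells, was at 8.91, 7.38 and 9 CPM against 1.2 and 0.819 CPM. Gpr137b-ps, a transcribed pseudogene, was at 42.2, 36.0 and 30.6 CPM against 6.13 and 1.47 CPM. None of these overlapped between groups, all were called whichever library was left out, and on PFOA their log2 fold changes were 1.61, 2.17 and 2.87. Chil1, a chitinase-like protein, was at 131, 104 and 155 CPM against 26.5 and 14.4 CPM and kept its difference on PFOA (2.56, adjusted p 0.0352), though its call was lost without 135 or 122 (2.29 without 122). Chil1 was the only called gene of the 14 in the alveolar type 2 list, and its KO vehicle libraries ranged from 11.1 CPM (in mouse 137) to 129 CPM. Ero1lb, an oxidase of the endoplasmic reticulum (log2 fold change 1.57), and Slamf7, a receptor of NK and other immune cells (1.92), were called on vehicle and on PFOA but not on vehicle without 122 (1.55 and 1.75).

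**Figure D4:**
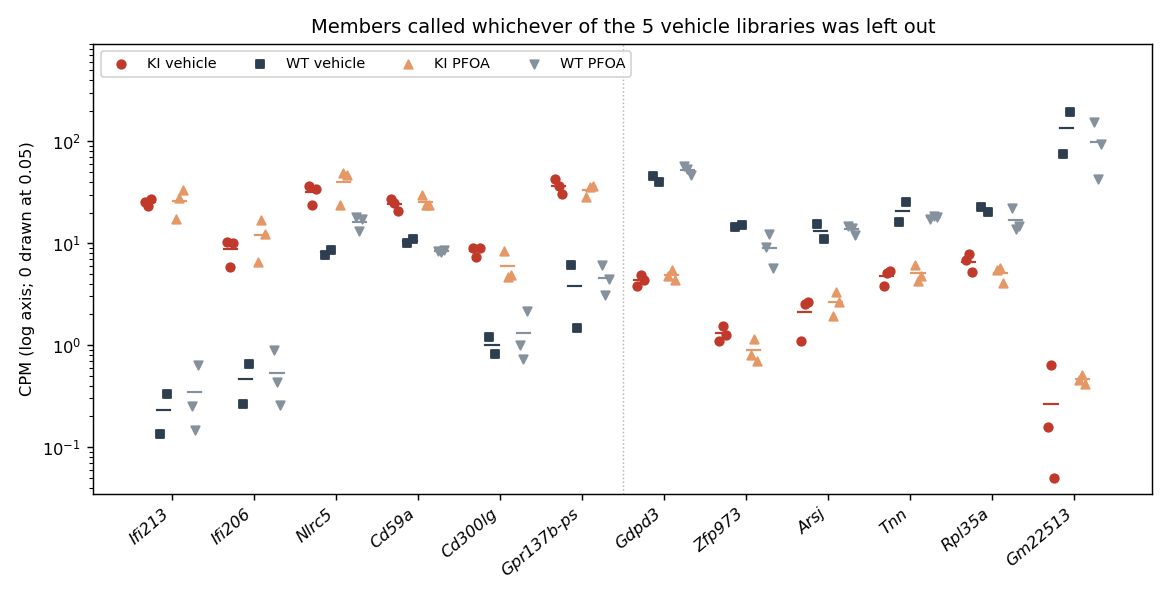
CPM on a log axis in each KI and WT library on vehicle and on PFOA for 12 genes called whichever vehicle library was left out, with short lines at the group means and 0 drawn at 0.05. The 6 genes on the left are higher in KI and the 6 on the right lower, and for each gene the KI and WT points do not overlap in either exposure.

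Gdpd3 (chr7:126766334-126775649, plus strand), an enzyme of lysophospholipid breakdown, was the lower gene with the smallest adjusted p. It was at 3.82, 4.84 and 4.36 CPM in KI and at 45.6 and 39.8 CPM in WT, 9.77-fold lower (log2 fold change -3.29 ± 0.21, adjusted p 9.35e-08). On PFOA the means were 4.84 ± 0.534 and 52.6 ± 5.14 CPM (SD, n = 3 each), and the KO vehicle libraries held 4.22 to 6.22 CPM. Zfp973, a zinc finger gene, was at 1.11, 1.53 and 1.27 CPM against 14.3 and 15.2 CPM. Arsj, an arylsulfatase, was at 1.11, 2.55 and 2.67 CPM against 15.5 and 11.1 CPM. Tnn, the matrix protein tenascin N, was at 3.82, 5.09 and 5.34 CPM against 16 and 25.6 CPM. The KI and WT ranges were far apart in all of these, and on PFOA the log2 fold changes of the last 3 were -3.32, -2.37 and -1.82. Their KO vehicle libraries held 0.921 to 1.51, 2.76 to 3.94 and 3.39 to 5.99 CPM.

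Atp1a4, the testis form of the sodium pump's catalytic subunit, had 0, 0.382 and 0 CPM in KI and 10.3 and 12.6 CPM in WT, a ratio of 80.1 in favour of WT with a counting interval of 26.9 to 393 on 3 KI counts. Cntn1, a neural adhesion protein, had 5.73, 14.1 and 6.89 CPM against 45.8 and 19.5 CPM. Gprc5b, an orphan receptor, had 33.1, 25.8 and 25.0 CPM against 72.6 and 66.3 CPM. These 3, with Ccdc190, Pnmal2, D430041D05Rik, Rpl35a and Gm12666, were called lower whichever library was left out. All but Gprc5b (-0.99, adjusted p 0.00625, under the fold limit) and Pnmal2 (-0.79, adjusted p 0.151) were called on PFOA too. Gm12666 had 0 counts in every KI vehicle library and was at least 25.5-fold lower. Alpk1, a kinase that senses bacterial sugars, and the claudin Cldn10 were lower with all 5 libraries (-1.34 and -1.50) and lost their calls without 122 (-0.88 and -1.23). On PFOA, Alpk1 was called (-1.13, adjusted p 0.0376), and Cldn10 was at -0.08. Glo1, which detoxifies methylglyoxal, and Mill2, an MHC class I-like gene, passed the adjusted p but not the fold limit with all 5 libraries (-0.92 ± 0.14 and -0.94 ± 0.15) and were called without 122 (-1.02 and -1.10). Bdkrb2, the bradykinin B2 receptor, was not called with all 5 libraries (-1.06, adjusted p 0.303) and was called without 122 (-1.59) and on PFOA (-1.61).

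Some lower genes were set largely by WT library 122. Cckar, the receptor of cholecystokinin, was at 25.8, 25.7 and 31.9 CPM in KI and at 42.0 and 83.4 CPM in WT. Rbp4, a retinol carrier, was at 11.6, 13.4 and 12.1 CPM against 20.8 and 34.4 CPM, and Ces1g, a carboxylesterase, at 3.82, 4.96 and 2.11 CPM against 8.79 and 36.7 CPM. WT 107 lay above the KI libraries for each, and 122 lay further above. With Liph, Ptgr1 and the aldehyde dehydrogenase gene Aldh1a7, these were called with all libraries but not without 122. There the 6 log2 fold changes lay between -1.27 (Ces1g) and -0.43 (Aldh1a7). All but Ces1g were also not called without 102, and Ces1g, Rbp4, Liph and Aldh1a7 were not called without 135. On PFOA 5 of the 6 lay between -0.32 (Liph) and 0.18 (Cckar), and Ces1g was at -1.09, with 0 called. The summed club cell list moved with them, at 7833 to 10790 CPM in KI, 12030 CPM in WT 107 and 26110 CPM in WT 122. On this list 1 of 10 genes was called (Aldh1a7), 3 had all KI libraries below both WT libraries (Scgb1a1, Cyp2f2 and Aldh1a7) and 4 had all KI libraries above both, among them the mucin Muc5b at 319, 485 and 444 CPM against 100 and 118 CPM (log2 fold change 1.93 ± 1.18, adjusted p 0.649). Ciliated cell genes summed to 1988 to 2036 CPM in KI and to 1911 and 3378 CPM in WT. The part of airway content in these differences was not tested.

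Genes called together often lay together in the genome. Of the 228, 81 (35.5%) had another called gene starting within 1 Mb, where 23.8% of all autosomal genes tested had a called gene so near. For the 68 genes called on both vehicle and PFOA, 22 (32.4%) had another such gene within 1 Mb, against 8.0% of all genes tested. Some neighbours are copies of 1 sequence, and with 4 identical rows of 5S ribosomal RNA taken as 1 the shares were 34.7% (against 23.8%) and 29.2% (against 7.9%). Beside the p200 cluster, a stretch of chromosome 7 held 32 tested genes, of which 5 were called higher, 14 were above 0 and 13 below 0 without a call. Apart from Cacng7, a calcium channel subunit, the called genes were immune receptor genes and the polymorphic pseudogene Gm15922: Pirb, an inhibitory receptor of myeloid and B cells (26.3, 14.3 and 20.8 CPM against 8.79 and 8.84 CPM), Gm15922 (21.6, 11.1 and 15.5 CPM against 3.86 and 5.24 CPM), Pira2 (0 counts in WT, at least 11.3-fold higher) and Ncr1. Without 122, Gm15922 stayed called (2.05) and Pirb (1.22) and Pira2 did not. Pirb also lost its call without 102 or 135.

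A second stretch of chromosome 7 held the very large interferon-inducible GTPase Gvin1 at 107, 127 and 126 CPM against 21 and 22.8 CPM, with its unprocessed pseudogenes Gm1966 (39.5, 28.3 and 33.2 CPM against 0.266 and 0 CPM) and Gm18853 (23.4, 25.3 and 22.1 CPM against 0 and 2.62 CPM). All 3 were high in every KI vehicle mouse. None was called on PFOA, where the KI mice differed among themselves: Gm1966 was at 38.4 CPM in mouse 57 and at 2.70 and 4.19 CPM in mice 80 and 139. All 3 lost their calls without 122 (Gvin1 at 2.51), both pseudogenes also without 102 or 135, and Gm18853 without 107. On chromosome 13, Ero1lb and Gpr137b-ps were higher while Gm18562 had 0 counts in KI and was at least 25.5-fold lower, and all 3 were called on PFOA. On chromosome 2, Cd59a was higher and the nearby D430041D05Rik lower (3.98, 2.93 and 5.06 CPM against 18.2 and 21 CPM), again on both exposures.

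Of the called genes, 62 were not protein-coding. Gm22513, annotated as a small nuclear RNA on chromosome 12, was at 0.159, 0.636 and 0 CPM in KI against 74.5 and 194 CPM in WT (log2 fold change -8.81 ± 0.63, adjusted p 3.51e-07). The lincRNA Gm2682 was at 11.1, 11.6 and 15.5 CPM against 0 and 0.491 CPM, a ratio of 57.9 with a counting interval of 19.6 to 282. The lincRNA Gm42047 had 0 counts in WT and was at least 34.2-fold higher. Each of these RNAs was at or near 0 in 1 genotype, and all 3 were called in the same direction on PFOA. Copies of the 5S ribosomal RNA on chromosome 8, such as n-R5s106, had 18.1, 31.9 and 18.4 CPM against 0.133 and 0.328 CPM, and 4 called rows there held identical values in every library. Taken as 1, they leave 225 calls, 146 of them higher, with 65 called on PFOA too and a core of 31. Ribosomal protein genes and their pseudogenes went both ways: Rpl35a was at 6.84, 7.76 and 5.2 CPM against 22.8 and 20.1 CPM, Rpl34 at 17.8, 25.5 and 22.6 CPM against 4.53 and 7.70 CPM, Rpl15-ps6 at 1.59, 0 and 0.141 CPM against 24.2 and 21 CPM and Rps15a-ps8 at 0.159, 0.255 and 0.141 CPM against 6.93 and 5.73 CPM. All 4 were called in both exposures. Reads of such genes can be assigned to near-identical copies, so that the levels of single copies are uncertain.

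No gene of the PPARα target list passed the test with all libraries. Of 32 tested, 0 were called by edgeR and 0 by DESeq2, 27 had a fold change above 0 and 5 had an unadjusted p under 0.05, with a median log2 fold change of 0.35 on vehicle, 0.27 without 122 and 0.12 on PFOA, against 0.015 over all autosomal genes on vehicle. The abundant members included Cd36, a fatty acid transporter, at 447, 551 and 474 CPM against 571 and 315 CPM. Cpt1a, which admits fatty acids to mitochondria, was at 140, 143 and 146 CPM against 128 and 104 CPM. The β-oxidation enzymes followed, Acadl (156, 131 and 122 CPM against 93.8 and 86.8 CPM) and Hadha (165, 116 and 114 CPM against 110 and 92.4 CPM). KI libraries lay above both WT libraries for Cpt1a, Acadl and Hadha, by log2 fold changes of 0.30 ± 0.26, 0.59 ± 0.27 and 0.38 ± 0.23, and the groups overlapped for Cd36. Without 116 the list held 1 call and without 107 it held 2.

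The largest differences on that list were in genes that heart muscle also uses, Fabp3 (27.9, 3.95 and 6.33 CPM against 1.73 and 0 CPM) and Cpt1b (18.8, 6.62 and 5.76 CPM against 1.73 and 1.64 CPM), both highest in mouse 102. The cardiac muscle list summed to 7990, 2468 and 2305 CPM in KI and to 817 and 560 CPM in WT, led by Myh6, with all 10 tested genes above 0, a median log2 fold change of 3.23 (0.80 on PFOA), 8 genes at an unadjusted p under 0.05, and 0 called by edgeR or DESeq2. The defining atrial gene Nppa was at 215 CPM in mouse 102 and at 0.127, 0, 0.266 and 0 CPM in the others. Adipocyte genes summed to 192, 34 and 39.4 CPM against 22.9 and 9.99 CPM. The part of heart and fat tissue in the PPARα target values was not tested.

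Of the 14 receptors and coregulators in the PPAR and RXR list, 1 was called, which was Ppara itself. Ppard was at 27.1, 27.0 and 21.4 CPM against 28.5 and 18.5 CPM, Pparg at 7.32, 6.87 and 5.06 CPM against 9.06 and 7.70 CPM, and Rxra at 78.5, 69.8 and 65.0 CPM against 78.9 and 79.3 CPM, none of them called. Of 15 genes of fatty acid synthesis, 0 were called (0 at an unadjusted p under 0.05, and 0 by DESeq2), with a median of 0.11 that was -0.15 without 122. Their leading genes varied most within WT, with Scd1 at 798, 927 and 668 CPM in KI and at 1070 and 307 CPM in WT. Of 18 genes of cholesterol synthesis and uptake, 0 were called (2 at an unadjusted p under 0.05, and 0 by DESeq2), with a median of -0.07. Of 9 dendritic cell genes, 1 was called higher, the chemokine receptor gene Ccr7 (8.12, 2.29 and 5.48 CPM against 1.47 and 0.983 CPM). Its call was lost without 122, 102 or 135, and its log2 fold change was 2.07, 1.83 without 122 and -0.11 on PFOA. Of 23 genes of xenobiotic metabolism, 1 was called lower (Aldh1a7), with a median of -0.45 that was -0.05 without 122. Of the 33 lists, 22 held no called gene, among them those of alveolar macrophages, monocytes, neutrophils, endothelial cells, the inflammasome, the cell cycle and the circadian clock. With 0.874% of all autosomal genes tested called, short lists will often hold no call, so an empty list does not show that its genes were unchanged. The monocyte list had 12 of 14 genes above 0 (median log2 fold change 0.60), the neutrophil list 9 of 12 (0.39) and the alveolar macrophage list 4 of 14 (-0.24).

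**Figure D5:**
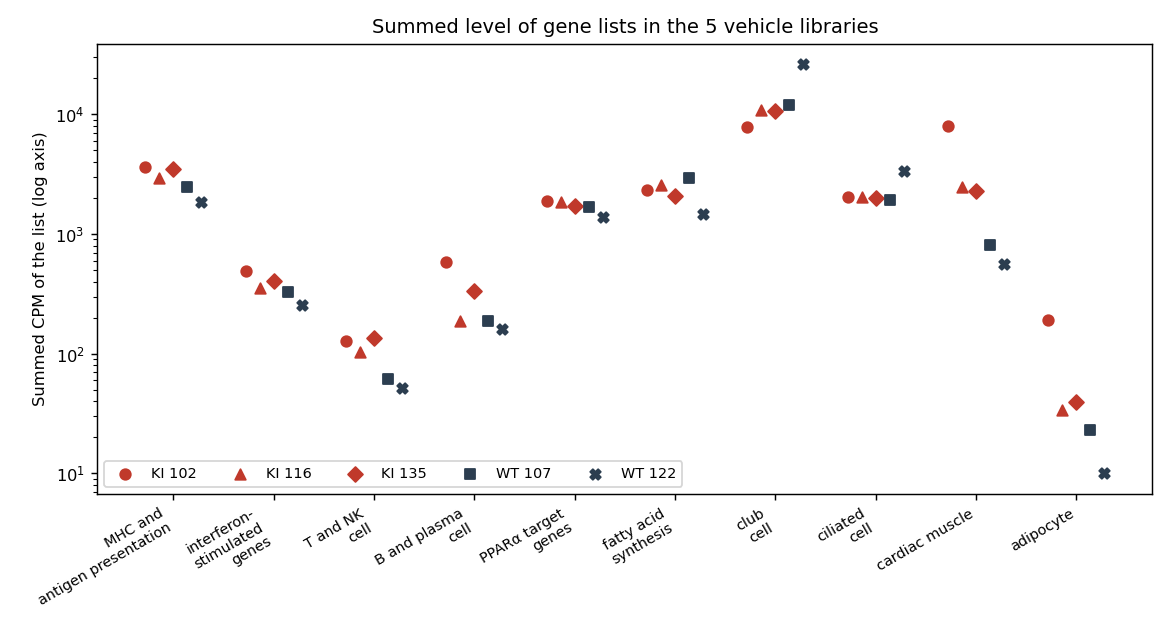
Summed CPM, on a log axis, of the tested members of 10 gene lists in the 3 KI (red) and 2 WT (dark) vehicle libraries. MHC, interferon and T and NK lists are higher in each KI library than in both WT libraries, B cell genes are high in KI 102 and 135, club cell genes are highest in WT 122 (26110 CPM) and cardiac genes in KI 102 (7990 CPM).

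Of 44 genes listed as known to vary between mouse strains, 37 were tested and 3 were called, against 0.874% of all autosomal genes tested. Ifi213 and Ifi203 were higher and Ifi202b lower, and all 3 are neighbours in the p200 cluster described above. Of 24 genes that the study names for PFOA effects, a list chosen in part on these samples, Ccl5 was called higher and Mfsd2a, a lysolipid transporter, lower (0.637, 3.05 and 1.97 CPM against 5.46 and 7.53 CPM). The call of Mfsd2a was lost without 122 (-1.49), 102 or 135, and its log2 fold change on PFOA was 0.63 (adjusted p 0.995). For any 1 gene, an exact two-sided permutation test of 3 against 2 libraries cannot go below p = 0.1, which Ifi213, Gdpd3 and Ppara reached.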

How the data were processed

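Lung RNA of 17 mice was sequenced after stranded total RNA library preparation (SMARTer Stranded Total RNA-Seq v2 Pico). The authors trimmed 3′ bases, aligned reads to mm10 with STAR 2.6 in Partek and quantified genes with an expectation-maximization model. They deposited expected counts per gene without normalization, and 29.9% of the cells were not whole numbers. Columns outside the sample list numbered 0. The annotation release and the use of strand are not given in the sources used here. Positions were taken from GENCODE M21, in which 96.7% of names were found once. 

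Counts were rounded, and genes summing to 20 or more over the libraries entered the test (26946, of which 26073 autosomal). TMM factors and quasi-likelihood fits (edgeR 4.0.16, R 4.3.3) used 1 coefficient per group over all 17 libraries. P-values were Benjamini-Hochberg adjusted over all 26946 genes, and calls required more than a 2-fold difference with an adjusted p below 0.2. The SE is the log2 fold change divided by the root of its F statistic. CPM is TMM-normalized. A group at 0 was set to 3 counts, and a group with 1 to 3 counts got an exact 95% counting interval. Intervals and floors cover counting error only. Each library has its own mouse number in the labels. Replicates differed by more than sampling noise. The chi-square per degree of freedom was 8.86 to 15.27 between KI vehicle libraries and 57.86 between WT 107 and 122. The fit was tested on simulated data. Alternatives were DESeq2 1.42.0, other factors, filters, thresholds, covariates and sample sets, and each library left out. The fit without KO library 137, and DESeq2's default filters on the PFOA and difference tests, were chosen after seeing the data.

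The comparison, its members and the 33 gene lists were chosen with earlier results of these data known. The genes named were Ppara, up to 15 protein-coding genes per direction with the smallest adjusted p and no overlap, called list members with the most abundant members of some lists, and 3 non-coding genes per direction. Other genes were named after their values were seen, among them p200, Gvin and Pir neighbours, Klrk1, Klre1, Eomes, Runx3, Cd22, Gpr137b-ps, Rpl34, Gm42047, Cckar, Rbp4, Ces1g, Liph, Ptgr1, Glo1, Mill2, Bdkrb2, H2-K1, Trac, Jchain, Nppa, Fabp3, Cpt1b, Myh6, Ccr7, Ppard, Pparg, Rxra, Gbp2b, F8a, Prrg3 and mt-Nd2. A gene that the rule named is not reported here.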

Additional observations from a re-analysis of the deposited data

Results flagged for a closer look

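Outside the autosomes, which the comparison left aside, 3 genes were called in KI against WT on vehicle. Prrg3 on chromosome X was at 68.8, 104 and 86.5 CPM in KI and 178 and 184 CPM in WT (log2 fold change -1.06, adjusted p 0.0448, and -0.71 on PFOA). F8a on chromosome X was at 2.55, 1.78 and 1.69 CPM against 4.93 and 5.24 CPM (-1.34, and -0.28 on PFOA). The mitochondrial gene mt-Nd2 was at 819, 661 and 718 CPM against 494 and 207 CPM (1.06, and 0.57 on PFOA), with the lowest value in WT library 122. These values came from rows that the autosomal comparison does not use. Groups of 2 and 3 libraries are too small for a search for outlying samples.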

How the results depend on the processing

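The vehicle count of 228 calls was 394 with DESeq2's default filters, 127 with at least 10 counts in every library, 62 in a fit of the 8 vehicle libraries, 453 with the protein-coding share as a covariate, 59 at an adjusted p under 0.05 and 27 with female libraries only. It ran from 44 to 1371 with 1 compared library left out, and was 408 without KO library 137. With the code read as the i5 index as a covariate, 205 genes were called, 63 of them among the 228 and 30 among the core of 34. The other settings stayed within 1.5 times the count, but a similar count can hold other genes. A fit of the 5 compared libraries alone called 238, of which 139 were among the 228. The PFOA count of 142 ran from 58 (without WT 50) to 138 with 1 library left out, with 61 without WT 56 and 77 without KI 139. The difference between exposures, 0 with edgeR, was 1 with DESeq2, with and without its filters. Of 1925 values of called named genes under alternatives, 1539 kept the call, 386 lost it and 0 changed sign. Of the named genes without a call, Cd36 (log2 fold change 0.15) turned to -0.14 with the protein-coding share and -0.16 with females only, and ran from -0.22 without 122 to 0.64 without 107. Scd1 (0.21) was -0.42 with females only and ran from -0.42 without 122 to 1.38 without 107, and Scd2 from -0.59 without 122 to 0.45 without 107. The causes were not tested. No paired analysis was possible because the groups share no replicate number. Depth limits genes near 3 counts, and 1 WT mouse of each sex limits every estimate.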

Other observations

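Gbp2b, a guanylate-binding protein that was not called, split the KI vehicle mice. It was at 36.0 CPM in mouse 102 and at 0.127 and 0.141 CPM in mice 116 and 135, while the WT vehicle libraries held 32.6 and 23.8 CPM. This gene was singled out after its values were seen.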
